A study of Mus musculus with 6 samples.

Results

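Phex, Fgf23, Pdpn, Kcnk2, Irx5, Ptprz1 and Fbln7 are osteocyte-enriched genes that lie outside the SIBLING family of bone glycoproteins and outside the Wnt inhibitors. They were taken by gene symbol from the array annotation, which gave 7 genes with 10 probe sets among 18193 genes and 45101 probe sets in all. The study compared RNA left on the inner wall of the femoral shaft with RNA of the marrow flushed out of it, in a search for the niche of blood stem cells at the bone surface. The 6 samples were taken from femurs of 3 mice, all male C57BL/6 of 8 weeks and all injected with saline into the peritoneum, with 1 array per sample. The 3 central arrays hold RNA of flushed cells, which were pelleted before lysis, and the 3 endosteal arrays hold what Trizol lysed inside the emptied shafts after the metaphyses had been cut off. Arrays of both regions are lettered A, B and C.

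Osteocytes are former osteoblasts that became walled into the mineral they made. They stay linked to each other and to the bone surface by long processes in fine canals, sense load, and act as endocrine cells that set the level of phosphate in blood. Phex, a membrane zinc endopeptidase whose loss causes X-linked hypophosphataemia, and Fgf23, the hormone that makes the kidney excrete phosphate, form the phosphate arm of this programme. Pdpn encodes podoplanin (E11), a membrane glycoprotein of early osteocytes that is needed for their processes to grow. Ptprz1 is a receptor tyrosine phosphatase that binds pleiotrophin, midkine and tenascin, Fbln7 a secreted fibulin that binds cells, Kcnk2 the stretch-sensitive potassium channel TREK-1, and Irx5 a homeobox transcription factor of the Iroquois family. None of the 7 is made by osteocytes alone. Osteoblasts also carry Phex and podoplanin, lymphatic vessels carry podoplanin, and glia carry Ptprz1.

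The start regions of Phex and Ptprz1 are shown because these genes had the largest endosteal increases, and that of Fgf23 because it belongs to the same phosphate arm as Phex and had no detectable difference. RefSeq start sites on GRCm38.p6 were found for 6 of the 7 genes (Kcnk2 has 4 starts), and Irx5 was not among them. Each sequence is the 250 bases before the start, 5′ to 3′ on the gene's strand. Phex lies on the minus strand at chrX:157415287-157415536, Ptprz1 on the plus strand at chr6:22875252-22875501 and Fgf23 on the plus strand at chr6:127072652-127072901. Capitals mark TTTAAA, which resembles a TATA box, and the GC box GGGCGG or its reverse complement.
Phex: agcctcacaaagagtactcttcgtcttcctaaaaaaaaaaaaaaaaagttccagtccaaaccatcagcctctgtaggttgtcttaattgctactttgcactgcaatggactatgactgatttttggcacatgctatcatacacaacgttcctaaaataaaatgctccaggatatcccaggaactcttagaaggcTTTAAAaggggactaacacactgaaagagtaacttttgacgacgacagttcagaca
Ptprz1: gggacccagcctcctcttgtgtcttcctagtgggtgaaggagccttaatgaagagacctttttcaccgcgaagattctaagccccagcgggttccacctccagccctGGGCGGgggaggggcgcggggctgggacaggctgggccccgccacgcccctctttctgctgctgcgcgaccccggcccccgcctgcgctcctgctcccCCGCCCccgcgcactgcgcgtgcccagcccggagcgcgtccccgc
Fgf23: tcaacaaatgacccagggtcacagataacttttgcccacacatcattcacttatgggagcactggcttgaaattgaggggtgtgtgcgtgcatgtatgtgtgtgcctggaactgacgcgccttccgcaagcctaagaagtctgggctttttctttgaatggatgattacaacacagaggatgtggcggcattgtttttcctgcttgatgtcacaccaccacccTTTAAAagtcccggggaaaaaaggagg

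TTTAAA stood 56 bases before the start of Phex, 27 before that of Fgf23 and 49 before that of Pdpn, and 12.1% of 32851 mouse promoter windows of this length hold it. It was added to the search after these sequences had been seen. Ptprz1 had 2 GC boxes, which 32.7% of windows hold at least once, and 1 of the 4 Kcnk2 starts had 1. The GC content was 71.6% for Ptprz1, 63.2% for Fbln7, 39.2% for Phex, 48.4% for Fgf23, 43.2% for Pdpn and 42.4% to 74.4% over the Kcnk2 starts (median of all windows 52.4%). Of the other motifs searched on both strands, the RUNX core TGTGGT (14% of windows) and the TATA box TATAAA (12.4%) matched in none of the 9 member windows, and the AP-1 motif TGANTCA (6.75%) matched in 1, at a start of Kcnk2. Phex, Fgf23 and Pdpn therefore share TTTAAA and a GC content under the median, although of these 3 only Phex differed between regions by the test below. At 1 Kcnk2 start the GC content was also under the median, without TTTAAA. These matches describe letters only.

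Phex, Ptprz1, Kcnk2 and Irx5 had higher signals in endosteal than in central RNA, while Pdpn, Fbln7 and Fgf23 did not pass the test. Log2 changes are on the log2(signal + 16) scale, endosteal minus central, and a gene is called when its adjusted p in limma (Benjamini-Hochberg over all 18193 genes) is below 0.05. Of the 7 genes, 4 were called higher and 0 lower, where 7.92% of all genes were called higher. The median change of the 7 was 1.92, against 0.10 for all genes. All 3 endosteal arrays lay above all 3 central arrays for the same 4 genes, and for 22.3% of all genes. Neither count is evidence about the group as a whole, since the genes were grouped with results of these arrays known. Signals were low: the mean signal of each of the 7 was under the median over all genes. As a guide to background, the 95th percentile over 78 probe sets of olfactory and vomeronasal receptor genes, which bone and marrow are not known to use, was 65.1 to 80.5 on central and 104 to 111 on endosteal arrays. By the probe set that stands for each gene, Phex, Ptprz1 and Kcnk2 lay below that percentile on all 3 central arrays and above it on all 3 endosteal arrays. For Phex and Ptprz1 the endosteal signal had decided the choice of probe set. Of all 18193 genes, 10598 lay above it on all 3 central arrays and 10384 on all 3 endosteal arrays. How many genes crossed it between regions as these did was not counted. In bulk RNA, fewer cells of a type and less RNA per cell cannot be told apart.

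**Figure D1:**
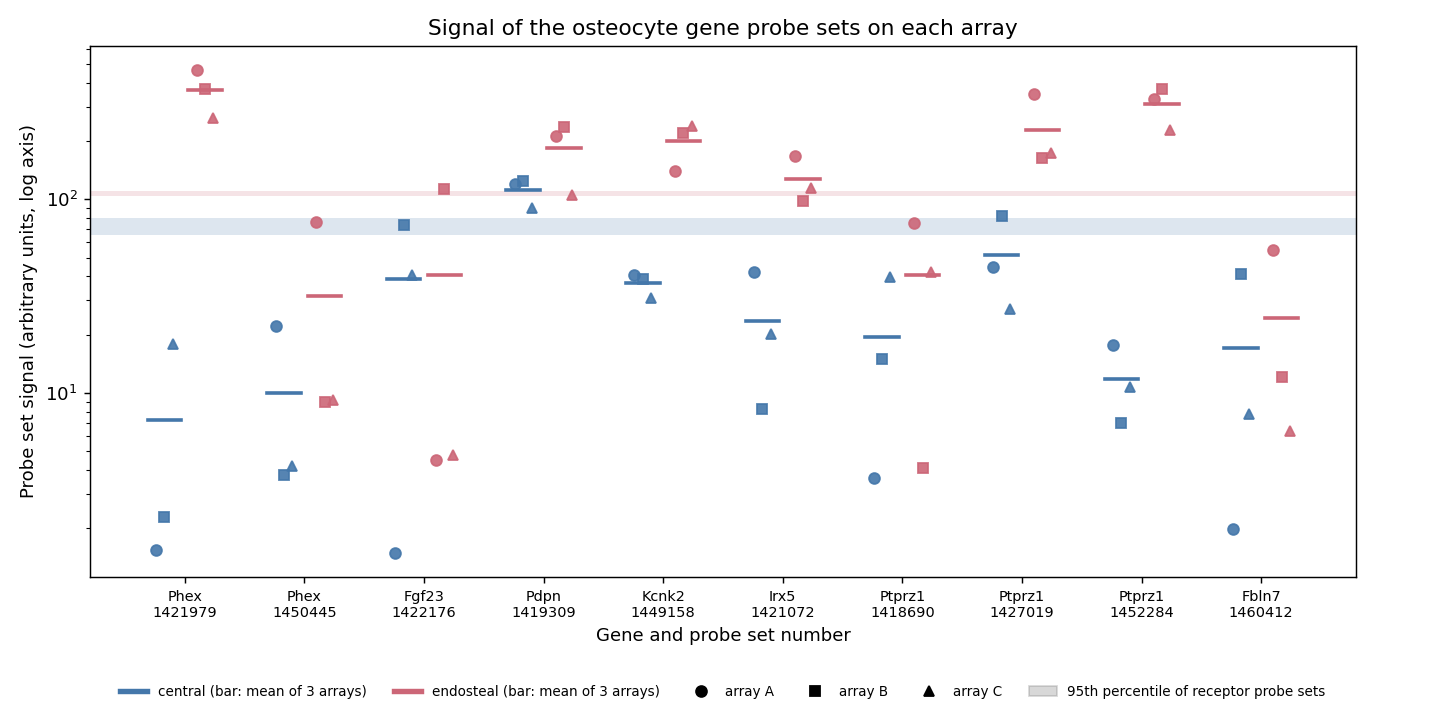
Signal of each of the 10 probe sets on each array (arbitrary units, log axis), with central arrays in blue, endosteal arrays in red, array letters by symbol and bars at the mean of 3 arrays. Shaded bands span the 95th percentile of the receptor probe sets on central (65.1 to 80.5) and endosteal arrays (104 to 111). The red points of Phex 1421979, Kcnk2, Irx5, Ptprz1 1427019 and Ptprz1 1452284 lie above all their blue points, while the other 5 probe sets overlap.

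Phex, the phosphate-regulating endopeptidase, had the largest increase of the 7. In central RNA its signal was 1.54, 2.29 and 17.8 (arrays A, B and C), and in endosteal RNA it was 466, 374 and 265, in the same order. The regions did not overlap, and every central value was of background size. The means were 7.20 ± 9.17 and 368 ± 101 (SD, n = 3 each). The log2 change was 4.08 (SE 0.34, limma adjusted p = 0.00415), a change larger than that of 99.7% of all genes. With the letter as a block the adjusted p was 0.0549. Because the central signal is at background, the size depends on the offset: it was 6.06 with an offset of 1 and 2.58 with 64, and the ratio of mean signals, the study's own measure, gave 5.68. Another probe set of Phex, 1450445_at, had signals of 22.1, 3.76 and 4.20 in central and 76.4, 9.005 and 9.13 in endosteal RNA. It stayed within the background range on all 6 arrays, its regions overlapped, and it did not pass (log2 change of 0.64, 95% interval -0.81 to 2.10, limma adjusted p = 0.575 over 45037 probe sets, of which 3.21% were called higher). The increase of Phex therefore rests on 1 of its 2 probe sets. Their mean gave 2.36 (adjusted p = 0.0212).

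Fgf23, the phosphaturic hormone that osteocytes secrete, could not be measured at this signal. It read 1.49, 73.6 and 40.5 in central A, B and C, and 4.52, 113 and 4.78 in endosteal RNA. Array B was the highest in both regions, and only its endosteal value exceeded the receptor percentile. The means were 38.5 ± 36.1 and 40.7 ± 62.5 (SD, n = 3 each), and the log2 change was -0.23 (SE 0.95, adjusted p = 0.899). The 95% interval, from -2.58 to 2.12, includes more than a 4-fold difference in either direction, and the sign turned without central array B and without endosteal array A or C.

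Genes that make, read or process this phosphate signal were chosen from general knowledge as a list of 18, of which 17 were measured. Of these, 6 were called higher and 0 lower, with a median of 0.48. Dmp1, a mineralisation protein whose loss raises FGF23, rose by 5.22, and Pth1r, the receptor for parathyroid hormone on bone cells, by 2.94. The vitamin D receptor gene Vdr rose by 2.33. Fgfr1, the receptor that FGF23 uses, went from 71.0, 38.0 and 50.3 on the central arrays to 372, 334 and 257 on the endosteal arrays (log2 change 2.30, SE 0.24, adjusted p = 0.00702). Its co-receptor Kl (alpha-klotho), which is made mainly in kidney, read 55.3, 27.4 and 40.1 in central and 7.61, 37.4 and 5.18 in endosteal RNA, all of background size, and did not pass (log2 change of -0.90, adjusted p = 0.214). Alpl, the tissue-nonspecific alkaline phosphatase that frees phosphate at the mineral front, rose by 2.20. The kinase gene Fam20c, whose product marks FGF23 for cleavage, rose by 0.87 (adjusted p = 0.0206), though its 3 probe sets averaged together changed by 0.39 (adjusted p = 0.482). Galnt3, which glycosylates FGF23 and protects it from cleavage, and Furin, the protease that cleaves it, did not pass, at 0.48 and -0.92 (adjusted p = 0.158 and 0.0709). With the letter as a block Dmp1 and Pth1r kept their calls, and Fgfr1, Vdr, Alpl and Fam20c had adjusted p of 0.0506, 0.0505, 0.0726 and 0.0811.

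Phex belongs to the M13 family of zinc endopeptidases. Of its 6 other members, 1 was called higher and 0 lower. Mme, which encodes neprilysin, an endopeptidase of early B cells and of stromal and bone-forming cells, went from 43.4, 72.8 and 130.2 to 610.1, 568 and 594 (log2 change 2.73, SE 0.33, adjusted p = 0.0105, and 0.0595 with the block). Its endosteal arrays agreed closely and all lay above the central ones. Ecel1 changed by 1.71 without passing (adjusted p = 0.0734), and the endothelin-converting enzyme genes Ece1 and Ece2 by 0.02 and 0.23. Kel, the Kell blood group protein of red cell precursors, had high signals in both regions and did not pass at -0.48 (adjusted p = 0.130).

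Ptprz1, the receptor tyrosine phosphatase, was the only one of the 4 called genes that kept its call in every alternative that gave it a value. Except for the probe set mean, these alternatives refit 1452284_at, the probe set whose endosteal signal decided its choice. The probe set 1452284_at, which represents the gene, read 17.6, 6.94 and 10.7 in central A, B and C, against 332, 372 and 228 in endosteal RNA. Means were 11.7 ± 5.39 and 310.4 ± 74.5 (SD, n = 3 each), and the log2 change was 3.55 (SE 0.24, adjusted p = 0.00284). Its 95% interval, 2.95 to 4.14, overlapped that of Phex, 3.25 to 4.92. With the letter as a block the adjusted p was 0.0459, and Ptprz1 was then the only one of the 7 called, where 0.786% of all genes were called higher and 0.033% lower. A second probe set, 1427019_at, read 44.5, 82.4 and 27.2 in central and 349, 163 and 174 in endosteal RNA. Its regions were separate too, but at 1.86 (SE 0.42) it missed the threshold over all probe sets (adjusted p = 0.0668). The third, 1418690_at, read 3.61, 15.02 and 39.9 against 75.2, 4.06 and 42.1, all within the background range and overlapping (log2 change 0.55, adjusted p = 0.673). Averaged together, the 3 probe sets changed by 1.99 (adjusted p = 0.0160). Over all probe sets, only 1452284_at of the 3 was called, and with the block its adjusted p there was 0.091.

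Of 7 genes for ligands and relatives of Ptprz1, 2 were called higher and 0 lower. Tnc, the matrix glycoprotein tenascin C, went from 211, 298 and 436 on central arrays to 5160, 4184 and 4404 on endosteal arrays, with a change of 3.85 (SE 0.27, adjusted p = 0.00318, and 0.0499 with the block). Mdk, the growth factor midkine, went from 123, 103 and 175 to 428, 307 and 408 (log2 change 1.42, SE 0.23, adjusted p = 0.0212, and 0.0607 with the block). Endosteal signals of both ligands lay above all their central ones. Ptn, which encodes the ligand pleiotrophin, read 63.7, 65.6 and 96.3 against 25.1, 47.8 and 153 and did not pass (log2 change -0.24, adjusted p = 0.806). The sign turned when its 3 probe sets were averaged (0.24, adjusted p = 0.536). Ptprg, the closest relative of Ptprz1, read 7.68, 4.94 and 83.4 against 239, 132 and 164. Its regions did not overlap, but central array C was far above the other central arrays, and it missed the threshold (log2 change 2.37, SE 0.64, adjusted p = 0.0707). The 4 probe sets of Ptprg averaged together changed by 1.95 and passed (adjusted p = 0.0398). The neural partners Cntn1, Nrcam and Ncan had changes of 0.42, -0.32 and 0.82, none of which passed.

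Kcnk2, the mechanically gated potassium channel, had central signals of background size on all 3 arrays. It read 40.9, 38.7 and 30.8 in central A, B and C, whereas endosteal RNA gave 141, 221 and 239. The means were 36.8 ± 5.31 and 200.4 ± 52.4 (SD, n = 3 each), and the change on the log2 scale was 2.01 (SE 0.22, adjusted p = 0.00878). With the letter as a block the adjusted p was 0.0620. Unlike Phex, which was highest on endosteal array A, Kcnk2 was lowest there: arrays of the same letter differed by 1.46 (A), 2.12 (B) and 2.45 (C), against 4.78, 4.41 and 3.05 for Phex. Whether this is more than spread between arrays was not tested. Of 11 other measured two-pore potassium channel genes, 1 was called higher and 0 lower. That was Kcnk6, from 1102, 1185 and 1380 to 1851, 2180 and 1854 (log2 change 0.68, SE 0.15, adjusted p = 0.0423, and 0.112 with the block), which passed in 6 of 16 alternatives. Kcnk4 and Kcnk10, which encode the other channels of the TREK group, TRAAK and TREK-2, did not pass, at -0.71 and -0.12 (adjusted p = 0.318 and 0.894), and all their signals were of background size.

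Irx5, the Iroquois transcription factor, was called higher with little margin. Its signals were 42.3, 8.25 and 20.1 in central A, B and C, compared with 167, 98.2 and 115 in endosteal RNA. The regions were separate, though endosteal array B did not reach the receptor percentile. Means were 23.5 ± 17.3 and 127 ± 36.04 (SD, n = 3 each), and the change on the log2 scale was 1.92 (SE 0.37, adjusted p = 0.0305). The increase had the same direction on all 3 letters, at 1.65 for A, 2.24 for B and 1.86 for C. It missed the threshold with the letter as a block (adjusted p = 0.0513), with an offset of 1 (0.0598), after quantile normalisation (0.0700), and when central array B or C (0.0749 and 0.0918) or endosteal array A, B or C (0.0776, 0.0667 and 0.0721) was left out.

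Of the 5 other Iroquois genes, 1 was called higher and 1 lower, where 4.02% of all genes were called lower. Irx3, which lies in the same gene cluster as Irx5 and acts redundantly with it in limb and heart, went from 35.6, 66.2 and 101.7 to 396, 342 and 235 (log2 change 2.07, SE 0.36, adjusted p = 0.0238, and 0.0989 with the block). Both Irx3 and Irx5 had higher signals on every endosteal array than on any central array. Irx2 read 40.0, 41.1 and 44.3 against 8.82, 7.56 and 10.9 (log2 change -1.21, SE 0.12, adjusted p = 0.00664, and 0.0566 with the block), all of background size. Irx1, Irx4 and Irx6 did not pass, at 0.05, 0.73 and -0.14.

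Pdpn, which encodes podoplanin and marks osteocytes soon after they are enclosed, was the only one of the 7 above the receptor percentile on all 6 arrays. Central A, B and C read 119.9, 124 and 89.8, and the endosteal signals were 213, 236 and 105. Endosteal arrays A and B lay above the central range, whereas endosteal array C lay inside it and 1.38 units above that array's receptor percentile. The means were 111 ± 18.7 and 185 ± 69.7 (SD, n = 3 each), and the difference did not pass (log2 change of 0.60, SE 0.32, adjusted p = 0.276). Its 95% interval ran from -0.18 to 1.38, so these arrays do not show that the regions are alike.

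Among 7 measured partners of podoplanin, 1 was called higher and 2 lower. Clec1b, its receptor on platelets, read 2836, 5475 and 6006 against 8551, 12349 and 9711 and did not pass (log2 change 1.15, adjusted p = 0.0801). Cd9, a tetraspanin that binds podoplanin and is abundant on platelets, rose by 0.85 (adjusted p = 0.0139, and 0.0761 with the block). Ezr and Msn encode the linkers ezrin and moesin between podoplanin and actin and are also made by blood cells. They fell by 0.64 and 0.56 (adjusted p = 0.0269 and 0.0486, and 0.0942 and 0.116 with the block). Both turned to 0.39 and 0.48 with scaling to the poly-A controls, which moves the median of all genes by 1.03. Averaged over 2 probe sets each, Ezr fell by 1.69 (adjusted p = 0.00555), and Msn lost its call at -0.41 (adjusted p = 0.124). The hyaluronan receptor gene Cd44 did not pass, at -0.44 (adjusted p = 0.138).

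Fbln7, a secreted fibulin also known as TM14, was of background size on all 6 arrays. Central A, B and C gave 1.99, 41.2 and 7.81, while endosteal RNA gave 54.9, 12.1 and 6.37. The regions overlapped, and letter A gave a difference of 1.98 while B and C gave -1.03 and -0.09. The means were 16.99 ± 21.1 and 24.5 ± 26.5 (SD, n = 3 each), and the log2 change was 0.29 (SE 0.61, 95% interval -1.22 to 1.79, adjusted p = 0.796). At this signal no difference could be detected. Of 5 other measured fibulin genes, 1 was called higher and 0 lower. Fbln5, which organises elastic fibres, went from 156, 183 and 297 to 1909, 1924 and 1716 (log2 change 3.08, SE 0.25, adjusted p = 0.00405, and 0.0506 with the block), and its 2 probe sets together changed by 2.11 (adjusted p = 0.0202). Efemp1 and the hemicentin gene Hmcn1, at 1.58 and 1.35, did not pass (adjusted p = 0.131 and 0.0774), nor did Fbln1 and Fbln2, at -0.92 and 0.67. Averaged over its 3 probe sets, Fbln1 changed by 0.34 (adjusted p = 0.559).

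**Figure D2:**
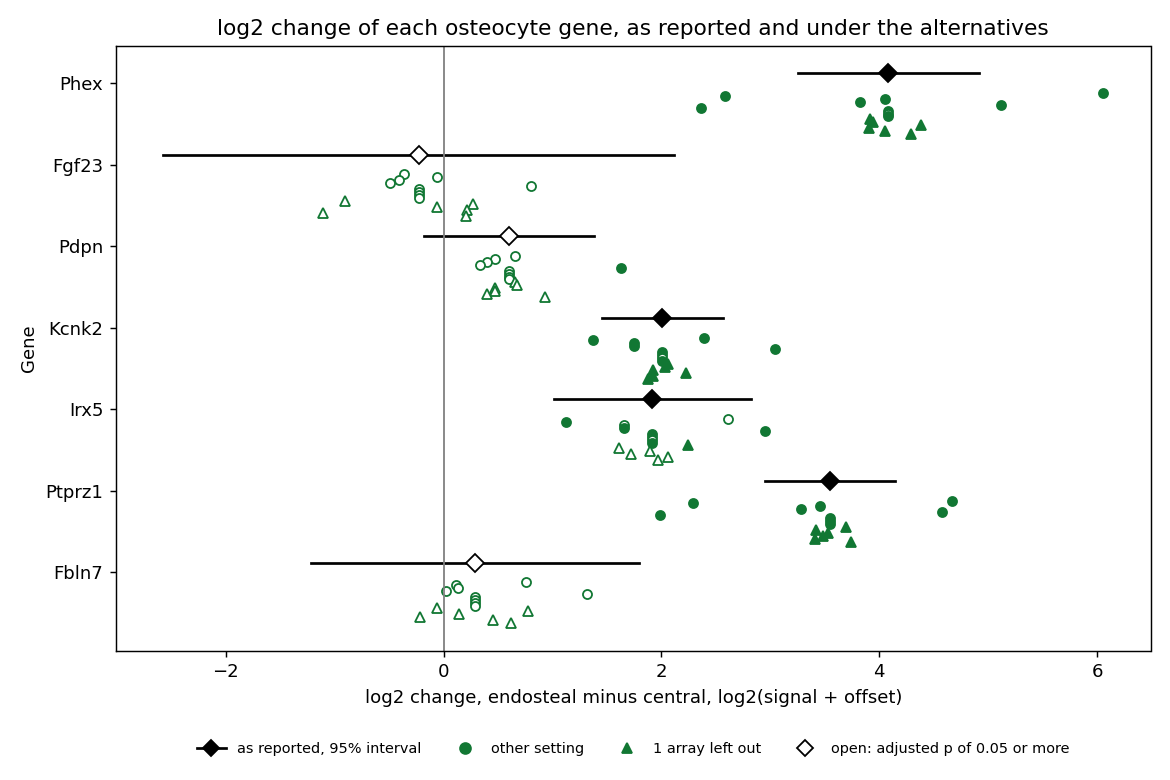
Log2 change of the 7 genes, endosteal minus central. Diamonds are the reported values with 95% intervals, circles other settings, triangles fits without 1 array, and open symbols have an adjusted p of 0.05 or more. Phex spans 2.36 to 6.06, Ptprz1 1.99 to 4.67, Kcnk2 1.37 to 3.04 and Irx5 1.13 to 2.95, while Fgf23 and Fbln7 lie on both sides of 0.

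Osteocyte genes of the families left out of the 7 were measured on the same arrays. Of 8 measured, 4 were called higher and 0 lower, with a median of 1.77. The lists overlap: Dmp1 and Mepe are also counted in the phosphate list, Ibsp in the osteoblast list, and Alpl in both of those. Dmp1 rose by 5.22, the Wnt inhibitor gene Wif1 by 4.20, Ibsp, bone sialoprotein, by 3.30 and Sfrp4 by 1.56 (adjusted p of 0.0721 for Sfrp4 with the block). Their order against Phex depends on the offset: with an offset of 1 the changes of Phex, Dmp1 and Wif1 were 6.06, 5.58 and 4.66, and with 64 they were 2.58, 4.49 and 3.33. Mepe, a marker of enclosed osteocytes, read 10.96, 12.7 and 10.48 in central and 259, 30.4 and 83.9 in endosteal RNA and did not pass (log2 change of 1.99, SE 0.63, adjusted p = 0.102). Sost, the marker of mature osteocytes, read 20.6, 54.0 and 14.9 against 36.2, 39.5 and 8.66, of background size throughout (log2 change -0.05, adjusted p = 0.956). Fgf23 and Sost, both made by mature osteocytes, were thus not detected above background in either region apart from Fgf23 on endosteal array B.

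Markers of other cells in the shaft moved on the same arrays. All 15 skeletal muscle genes were called higher (median 6.53), with a summed signal of 1106 to 1776 on central and 84830 to 172700 on endosteal arrays, highest on array A. Of 7 osteoblast genes 5 were called higher (median 3.30; summed signal 1591 to 2077 against 65900 to 81080), led by Col1a1 and Col1a2 at 6.34 and 6.10, and of 9 fibroblast and periosteal genes 8 (median 3.96; 1056 to 1291 against 14560 to 19700). Of 10 chondrocyte genes 6 were called higher (median 2.01; 379 to 403 against 3703 to 7285). For the lymphatic vessels that carry podoplanin, 2 of 5 genes were called higher (median 0.58; 1317 to 2329 against 3373 to 3962). These were Mmrn1, which megakaryocytes also make, and Flt4, at 1.75 and 1.53 (adjusted p = 0.0941 and 0.108 with the block). Mmrn1 had the largest mean signal of the 5 in both regions (802 in central and 2586 in endosteal RNA). The defining factor gene Prox1 and Lyve1 did not pass, at 0.58 and 0.10. Reln went the other way without passing, at -0.99 (adjusted p = 0.0687), with all endosteal arrays below all central ones. Averaged over its 2 probe sets, Reln changed by -0.23 (adjusted p = 0.759). Averaged over their probe sets, Mmrn1 and Flt4 lost their calls, at 1.37 and 1.10 (adjusted p = 0.0628 and 0.0615). Prox1 then passed at 0.64 (adjusted p = 0.0472), and Lyve1 changed by -0.29 (adjusted p = 0.424). For the Schwann cells and glia that carry Ptprz1, 2 of 6 were called higher and 1 lower (median -0.51, and 0.52 with poly-A scaling; 9689 to 11360 against 6174 to 8021). Most of that sum came from Cnp (means of 7290 in central and 4623 in endosteal RNA) and Mbp (2350 and 1270). Mbp was the gene called lower, at -0.88 (adjusted p = 0.0149, and 0.0783 with the block). Its 8 probe sets averaged together changed by -0.13 (adjusted p = 0.705). S100b and Pmp22 rose by 2.15 and 2.00 (adjusted p = 0.0810 and 0.0513 with the block). The glial gene Gfap had all endosteal arrays below all central ones but did not pass, at -1.93 (adjusted p = 0.0862). Averaged over its 3 probe sets it passed as lower, at -0.84 (adjusted p = 0.0269). The defining factor gene Sox10 did not pass, at -0.37. With the block 13 muscle, 4 osteoblast, 5 fibroblast and 2 chondrocyte genes were called. The part of any of these cells in the signals of Phex, Ptprz1, Kcnk2 and Irx5 was not tested. The same holds for the outer bone surface, which was scraped and rubbed before the marrow was flushed.

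**Figure D3:**
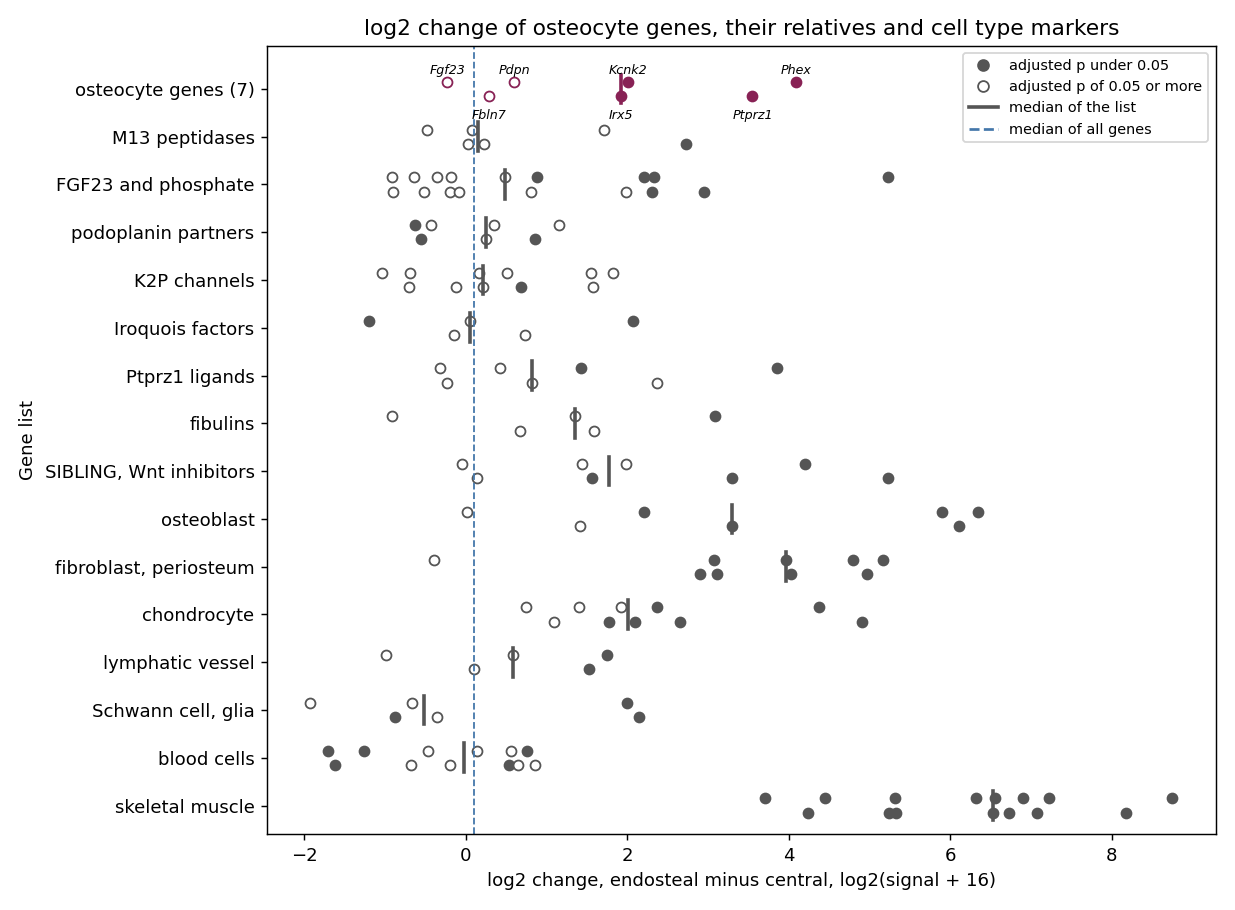
Log2 change (endosteal minus central, log2(signal + 16)) of the 7 osteocyte genes, of their relatives and partners, and of cell type markers. Each point is a gene, filled when its adjusted p is below 0.05, bars are list medians and the dashed line is the median of all genes (0.10). The 4 called genes, from 1.92 to 4.08, lie to the right of most of their relatives and to the left of most muscle genes (median 6.53).

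Over the 6 arrays, the genes whose log2 signal followed each called gene most closely were sought among the 9096 genes above the median level. For Phex they were Trdn, the muscle protein triadin, Ptprd, a receptor phosphatase, and Fermt2, the integrin activator kindlin-2, each at r = 0.999, with log2 changes of 3.26, 2.37 and 3.03. For Ptprz1 they were Psma3, S100a16 and Tmem40 (r = 0.999, 0.997 and 0.997), for Kcnk2 Dync1i2, Exosc9 and S100a9 (r = 0.997 each), and for Irx5 Npc2, Eci1 and Dynlrb1 (r = 0.999, 0.994 and 0.990). The 6 arrays fall into 2 regions, so any gene that differs between regions correlates with these: r exceeded 0.95 for 755 genes with Phex, 648 with Ptprz1, 390 with Kcnk2 and 169 with Irx5. The order of these genes describes 6 arrays and nothing further.

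Over all genes, endosteal RNA had 1441 called higher and 731 called lower. Blood cell markers were abundant in both regions, with a summed signal of 234200 to 249100 over 12 genes on central arrays and 323000 to 338900 on endosteal arrays. Of these, 3 B cell genes were called lower (Cd79a fell by 1.71) and 2 neutrophil genes higher (Ngp rose by 0.76), with adjusted p of 0.0502 for Cd79a and 0.0821 for Ngp under the block, which left 0 blood genes called. Higher and lower blood genes were 0 and 2 after quantile normalisation, where Ngp was at 0.07 (adjusted p = 0.735), 0 and 4 after centring, and 7 and 0 with poly-A scaling. The osteoblast genes Runx2, Bglap and Spp1 were not analysed here.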

How the data were processed

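RNA of 3 central and 3 endosteal samples was measured on Affymetrix mouse arrays after one-cycle labelling of 2 micrograms of RNA, per the labels' protocols. The authors' deposited values are linear intensity signals of 45101 probe sets. Software, background step and genome build: not given in the sources used here. Each array had a mean of 500 after trimming 2% at each end, so 1 scale factor per array is likely, and precision is limited by having 3 arrays a region. Median signals were 97.2 to 106 on central and 119.6 to 131 on endosteal arrays.

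Of the probe sets, 34945 named 1 gene, 932 several and 9160 none here. Symbols were looked up in the GRCm38.p6 RefSeq table (34741 found, 0 changed). Among probe sets naming only a gene, that of highest mean (linear) signal stood for it. That mean covers both regions, so the choice is not independent of the difference tested. For Phex and Ptprz1 the chosen probe set had the lowest central mean of the gene's probe sets, and its endosteal signal decided the choice. Signals were taken as log2(signal + 16), which understates changes of low genes, and fitted with limma 3.58.1 in R 4.3.3 (lmFit, eBayes, region as the only term, two-sided, Benjamini-Hochberg over all genes, threshold 0.05). Probe sets were fitted in the same way over all 45037 that are not controls. The procedure was tested on simulated data.

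The animals are shared by both regions, but the labels do not say that a letter stands for a mouse. Same-letter arrays deviated from their region means with correlations of 0.045 (A), 0.039 (B) and 0.015 (C) across genes, and of 0.25, 0.12 and 0.085 across genes above the median level. The minimum r set for pairing was 0.1, exceeded only by A and B across genes above the median level, so pairing by letter is not excluded. The main fit takes the 6 arrays as independent. The fixed block is an alternative, and its p or count is printed where it ends calls. The genes and lists were chosen from general knowledge with earlier results of these data known, and so were the rule for named genes (all 7 with their probe sets, relatives and partners, up to 4 called genes of a marker list in its main direction and up to 2 in the other, and the 3 most similar genes) and the alternatives. These were other offsets (1 and 64), scalings, probe set means, a level filter, an intensity trend, fixed and random blocks, and leaving out each array.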

Additional observations from a re-analysis of the deposited data

How the results depend on the processing

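The 4 calls among the 7 genes became 1 with the letter as a fixed replicate block, in which Phex, Kcnk2 and Irx5 had adjusted p of 0.0549, 0.0620 and 0.0513. With the letter as a random block 4 were called, at adjusted p of 0.00363 (Phex), 0.00715 (Kcnk2), 0.0218 (Irx5) and 0.00224 (Ptprz1). Without 1 array, 3 to 4 were called. With arrays scaled to the poly-A controls 5 were, as Pdpn passed at 1.63 (adjusted p = 0.00584). Poly-A scaling moved the median of all genes by 1.03 and centring by -0.26. Both shift all log2 values of an array alike, so the distance of any gene from that median cannot change (3.98 for Phex, 0.50 for Pdpn). Quantile normalisation left 3. Ptprz1 kept its call in 15 of 15 alternatives, Phex and Kcnk2 in 14 and Irx5 in 7. Except for the probe set mean, these refit the chosen probe set of each gene. No gene of the 7 is above the median level, so that filter gave none of them a value. Fgf23, not called, turned to 0.80 with poly-A scaling, 0.27 without central B, 0.22 without endosteal A and 0.21 without endosteal C (-1.11 to 0.27 over all 6 arrays left out in turn), and Fbln7 to -0.06 without central A and -0.21 without endosteal A (-0.21 to 0.78). Over all genes, higher and lower calls (1441 and 731) were 951 and 1786 with arrays centred on their median, 12621 and 20 with poly-A scaling, 2215 and 1693 with an intensity trend and 143 and 6 with the replicate block. Lower calls were 1105 with an offset of 64 and 1722 among genes above the median level. Leaving out 1 array gave 549 to 928 higher and 101 to 307 lower. Higher genes were 66.3% of calls as deposited, 62.4% after quantile normalisation, 34.7% after centring and 99.8% with poly-A scaling. The causes of these shifts were not tested. Signal near background limits Fgf23, Fbln7 and the central values of Phex, Ptprz1, Kcnk2 and Irx5.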
